A study of Mus musculus with 4 samples.

Results

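Astrocyte marker genes were examined for trimethylation of histone H3 at lysine 4 (H3K4me3) at their transcript starts in mouse cerebral cortex. The set was a list of 10 named genes, Slc1a2, Slc1a3, Glul, Gja1, Gjb6, Aqp4, Gfap, Aldh1l1, S100b and Sox9, out of 21938 protein-coding genes of the annotation, and all 10 were found in it. A gene was called marked when a deposited peak came within 1000 bases of any of its annotated transcript starts. Such peaks were joined to neighbouring peaks across gaps of up to 1000 bases, and the widest joined stretch is called the promoter domain of the gene. Enrichment is the value the authors gave to the highest peak at a start, a ratio, and genes were compared by it only within a list.

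H3K4me3 is a histone mark that sits on the nucleosomes around transcription start sites, mainly just downstream of the start, and it is found at active promoters and at many CpG-rich promoters. Broad domains of the mark that run into the gene body are known at genes central to the identity of a cell. Astrocytes are the glial cells that clear glutamate from synapses, return it to neurons as glutamine, couple to each other through gap junctions and wrap blood vessels with their endfeet, and the listed genes serve these tasks or are used to identify the cells.

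The tissue was left cerebral cortex of female adult B6CASTF1/J mice, the first-generation hybrid of C57BL/6J and CAST/EiJ, aged 2 months, with no treatment or other genotype in the labels. There were 4 libraries, 2 technical replicates each of pool J and pool I, and every pool combined 4 biosamples. All libraries carried 1 donor record. Whether distinct animals lie behind the biosamples is not stated in the labels, and differences between the pools may therefore be technical in part. Peaks were listed once for each pool, with 21573 for pool J and 24508 for pool I, and a replicated list across the pools held 25446. Read depth behind the lists is unknown, and with 1 list a pool no test between pools could be made. Whole cortex was assayed, so fewer astrocytes and less mark in each astrocyte cannot be told apart. Nor can the mark at these genes in astrocytes be told apart from that in other cells of the cortex.

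Of the 10 genes, 9 were marked in the replicated list, where 65.2% of all protein-coding genes were marked. The count was also 9 in pool J, beside 63.9% of all genes, and 9 in pool I, beside 64.8%. Gfap was the unmarked gene in each list. With a stricter peak, at a −log10 q of at least 10, 7 genes were marked in the replicated list beside 62.3% of all genes, 6 in pool J beside 61.8% and 7 in pool I beside 62.4%. Aqp4 and Aldh1l1 missed this level in every list, and S100b missed it in pool J. The median domain of the 9 marked genes was 3996 bases wide in the replicated list, 3125 for pool J and 4116 for pool I, whereas all marked genes had medians of 2124, 2026 and 2193.5 bases. Their median enrichment was 9.47 in the replicated list, 7.84 for pool J and 10.8 for pool I, beside 20.8, 20.6 and 20.8 over all marked genes. The set was thus wider and less enriched than the middle of all marked genes, with a spread from 776 to 8067 bases within it in the replicated list. The 9 genes fell into a wide group of Glul, Slc1a2 and Sox9, a middle group of Slc1a3, Gja1 and Gjb6, and a narrow group of S100b, Aqp4 and Aldh1l1.

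**Figure D1:**
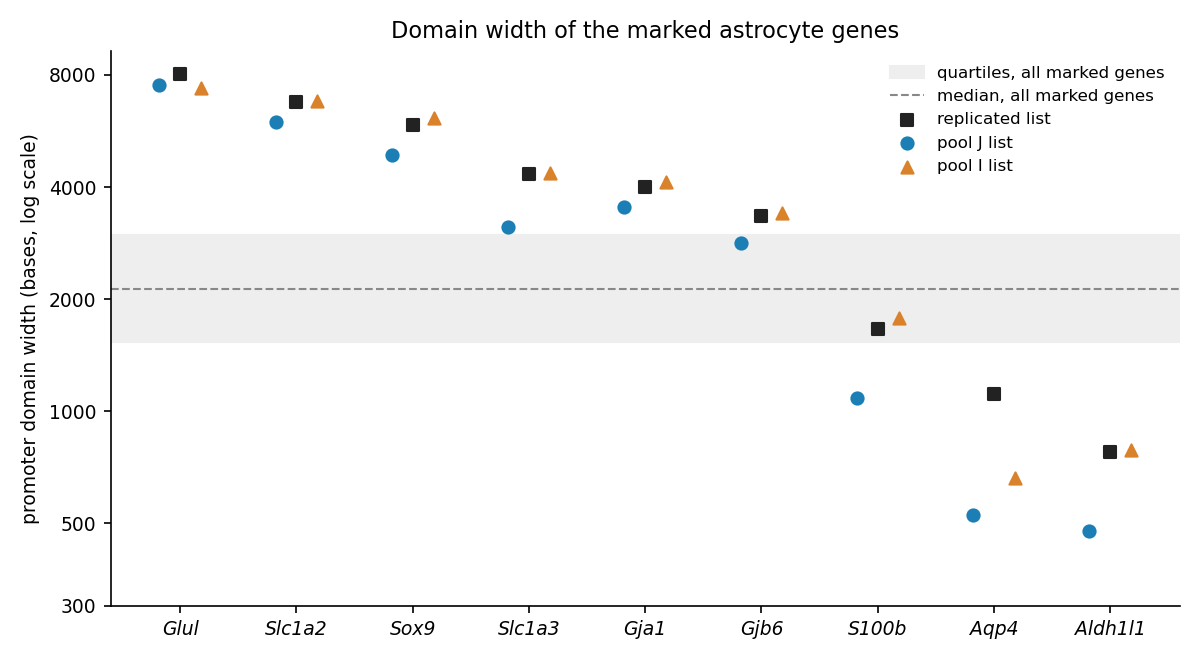
Promoter domain width in bases on a log axis for the 9 marked genes, in the replicated list (squares), pool J (circles) and pool I (triangles); the dashed line is the median and the grey band the quartiles of all marked genes in the replicated list. Glul, Slc1a2 and Sox9 lie highest and Aqp4 and Aldh1l1 lowest in every list.

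Width and enrichment were then read together. A domain wider than the median of all marked genes combined with an enrichment below it was seen at 6 of the 9 marked genes in the replicated list, where 18.5% of all marked genes had this combination. It was seen at 5 in pool J, beside 18.6% of all marked genes, and at 5 in pool I, beside 18.9%. The gene that left the combination in the single pools was Slc1a2, which lay above the median enrichment of either pool at 23.5 and 23.8. The width of Gjb6, among the 6 genes, rests on the joining of separate peaks, as given below.

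**Figure D2:**
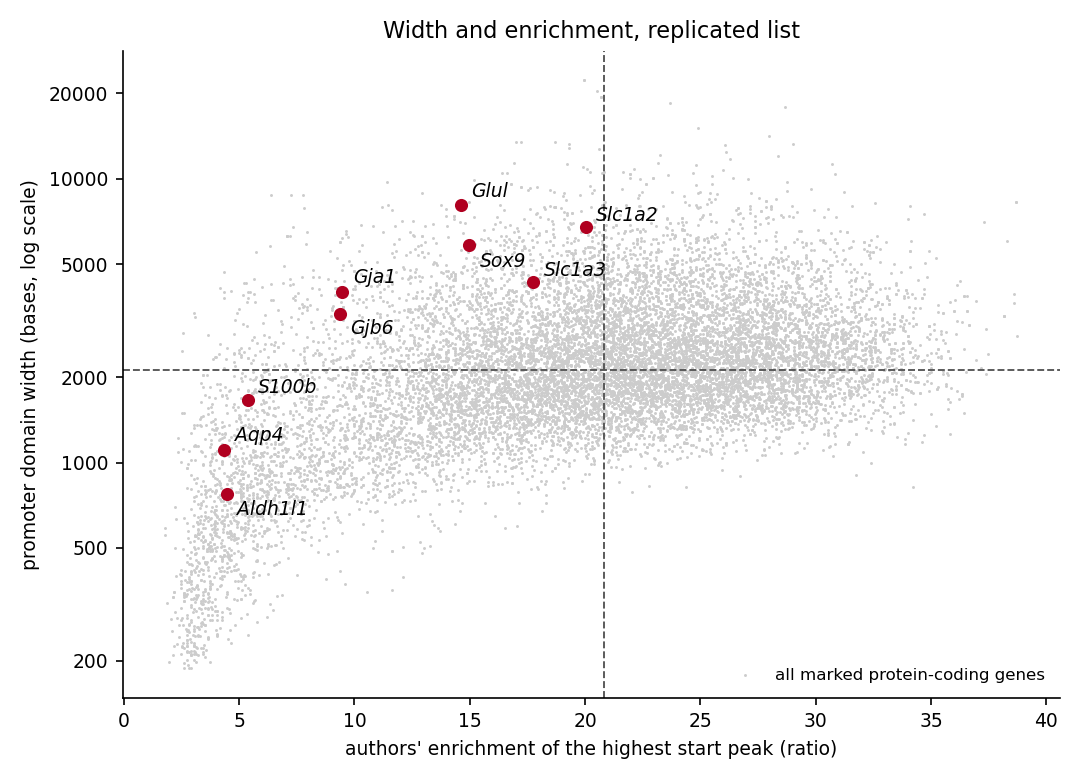
Promoter domain width (bases, log axis) against the authors' enrichment of the highest start peak (ratio) in the replicated list; grey points are all marked protein-coding genes, red points the 9 marked astrocyte genes and dashed lines the medians of 2124 bases and 20.8. All 9 genes lie left of the enrichment median and 6 of them above the width median.

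The sequences just upstream of the starts show how far the promoters differ. The 200 bases before the start are printed for 6 genes, chosen to cover the range of the mark: Slc1a2 (chr2:102658459-102658658, + strand) and Sox9 (chr11:112782024-112782223, + strand) from the wide group, Gja1 (chr10:56377130-56377329, + strand) from the middle group, Aldh1l1 (chr6:90550589-90550788, + strand) and S100b (chr10:76253653-76253852, + strand) from the narrow group, and the unmarked Gfap (chr11:102897201-102897400, - strand). They are the RefSeq GRCm38.p6 (mm10) sequence, which is that of C57BL/6J, so the CAST/EiJ allele of the hybrid is not shown. Each runs 5′ to 3′ on the strand of the gene and ends at the base before the start, and capitals mark the CpG dinucleotides.
Slc1a2: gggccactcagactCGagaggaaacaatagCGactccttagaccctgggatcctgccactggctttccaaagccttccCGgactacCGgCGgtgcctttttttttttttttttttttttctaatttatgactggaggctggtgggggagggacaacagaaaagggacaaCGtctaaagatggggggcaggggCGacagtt
Sox9: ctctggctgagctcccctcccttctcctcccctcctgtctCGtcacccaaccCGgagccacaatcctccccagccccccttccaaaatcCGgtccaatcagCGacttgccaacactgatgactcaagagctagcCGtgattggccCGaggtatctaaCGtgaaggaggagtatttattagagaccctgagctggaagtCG
Gja1: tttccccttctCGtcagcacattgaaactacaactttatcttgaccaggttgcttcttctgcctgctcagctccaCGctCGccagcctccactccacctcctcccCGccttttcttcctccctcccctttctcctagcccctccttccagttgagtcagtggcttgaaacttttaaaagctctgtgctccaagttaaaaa
Aldh1l1: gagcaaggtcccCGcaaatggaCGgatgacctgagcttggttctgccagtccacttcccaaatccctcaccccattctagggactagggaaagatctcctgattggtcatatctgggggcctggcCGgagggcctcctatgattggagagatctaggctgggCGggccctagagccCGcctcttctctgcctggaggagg
S100b: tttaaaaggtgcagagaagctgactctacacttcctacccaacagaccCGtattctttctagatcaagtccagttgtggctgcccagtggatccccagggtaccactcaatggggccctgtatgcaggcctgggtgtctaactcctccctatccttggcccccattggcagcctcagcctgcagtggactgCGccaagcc
Gfap: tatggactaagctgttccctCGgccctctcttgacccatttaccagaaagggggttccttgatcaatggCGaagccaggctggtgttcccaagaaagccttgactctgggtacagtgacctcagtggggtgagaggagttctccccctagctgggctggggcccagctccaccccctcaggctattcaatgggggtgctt
Sox9 held 8 CpG dinucleotides in this window and Slc1a2 held 7. Gja1 held 4 and Aldh1l1 held 5. S100b and Gfap held 2 each, the median of all unmarked genes, while the median of all marked genes was 12. These medians are for windows at the 5′-most start, whereas the Aldh1l1 and Gfap windows lie at starts 64362 and 3712 bases downstream of it. The Glul window, not printed because it overlaps exons of other genes, held 13.

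CpG content over a longer window, 1000 bases either side of the start, was set against all protein-coding genes by deciles of the observed-to-expected CpG ratio at the 5′-most start. The median ratio was 0.605 for all marked genes and 0.168 for all unmarked genes. Sox9 had a ratio of 0.756, in the ninth decile, where 98.1% of genes were marked. Glul with 0.661 and Slc1a2 with 0.655 lay in the eighth decile, where 97.6% were marked. These are the 3 genes of the wide group. Slc1a3 with 0.486 and Gja1 with 0.480 lay in the sixth decile, where 92.9% of genes were marked, and Gjb6 with 0.472 in the fifth, where 81.6% were. S100b had the lowest ratio at its start, 0.144, in the second decile, where 12.4% of genes were marked, and it was marked in every list. The starts that carry the mark in Aqp4 and Aldh1l1 had ratios of 0.267 and 0.220, and the unmarked coding start of Gfap had 0.286, so the only unmarked gene was not the one with the lowest CpG ratio.

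**Figure D3:**
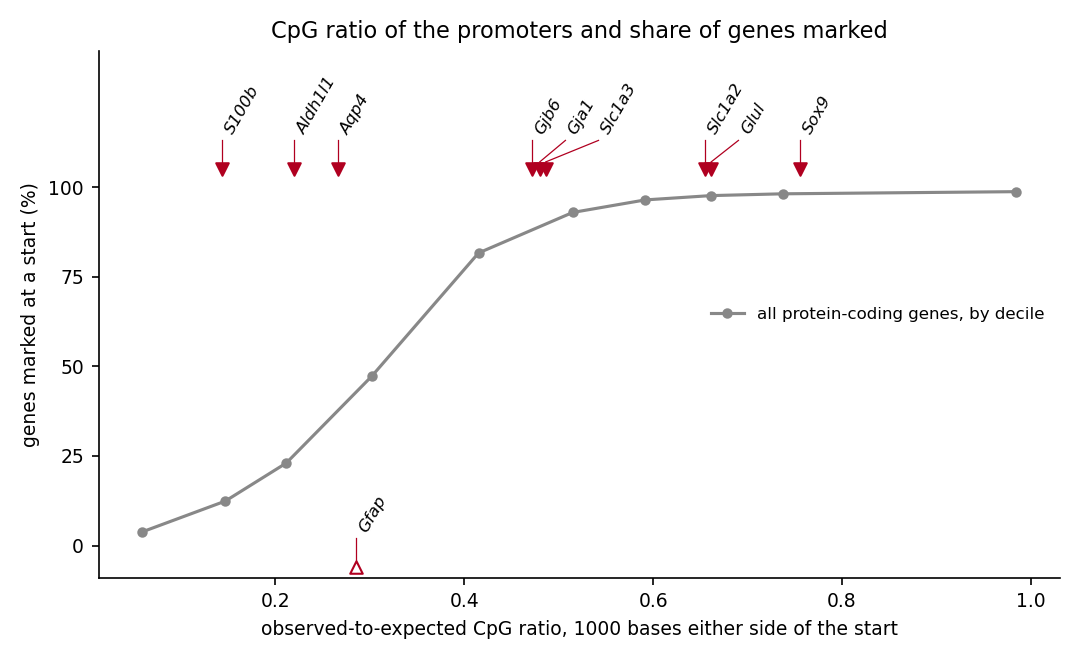
Share of protein-coding genes marked in the replicated list (%) by decile of the CpG ratio within 1000 bases of the 5′-most start (grey line, points at the middle of each decile's range), with the ratio at the described start of each astrocyte gene shown above for the marked genes (filled triangles) and below for Gfap (open triangle). The vertical place of the triangles carries no value.

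In the replicated list, set beside marked genes of their own CpG decile, the wide and middle groups had wider domains than the median. Glul and Slc1a2 had domains of 8067 and 6748 bases where the decile median was 2238, and Sox9 had 5866 where it was 2428.5. Slc1a3 had 4331 and Gja1 3996 bases where the decile median was 1752. The S100b domain of 1665 bases was close to its decile median of 1645. Aqp4 with 1110 bases and Aldh1l1 with 776 lay below the decile medians of 1645 and 1481. Their deciles are those of the 5′-most starts, which are unmarked. Enrichment in that list was below the decile median at all of these genes, from 20.0 against 22.7 for Slc1a2 to 5.38 against 14.3 for S100b and 4.36 against 14.3 for Aqp4. Decile medians were not computed for the single pools.

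Short motifs were searched in the 200 bases upstream of the starts, on both strands, and a match is a description of letters only. Shares over all promoters are for windows at the 5′-most start. At Aqp4, Aldh1l1 and Gfap the window was that of a coding start further downstream, so the start rules differ there. The CCAAT box was found at Slc1a3, Aqp4, Aldh1l1, S100b, Sox9 and Glul, 6 of the 10 genes, and in 31.7% of all 21938 promoters of that length. GGGCGG, the core of a GC box, was found at Slc1a3, Aldh1l1 and Glul, and in 37.5% of all promoters. TTCNNNGAA, the letters of a STAT site, was found at Slc1a3 and in 5.8% of all promoters. The windows of the 10 genes held no match to the TATA box letters TATAAA, the Sox letters ACAAAG, the cAMP response letters TGACGTCA or the spaced palindrome of nuclear factor I, which were found in 9.29%, 12.1%, 1.86% and 0.0228% of all promoters. None of the 7 motifs contains another, and TTCNNNGAA, TGACGTCA and the nuclear factor I palindrome read the same on both strands. In the printed windows the CCAAT box appears at Sox9, forward as ccaat 107 to 103 bases and in reverse as attgg 62 to 58 bases before the start. It appears in reverse at S100b, 37 to 33 bases before the start, and at Aldh1l1, 99 to 95 and 59 to 55 bases before it.

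The genes of glutamate uptake and glutamine synthesis included the widest domains of the set, those of Glul and Slc1a2. Slc1a2 encodes GLT-1, the main glutamate transporter of forebrain astrocytes. Its domain spanned 6748 bases in the replicated list (chr2:102658124-102664871), 5986 for pool J and 6797 for pool I, a mean over the pools of 6391.5 ± 573 bases (SD, n = 2). Enrichment was 20.0, 23.5 and 23.8, the highest of the 10 genes in each list. The domain began 535 bases upstream of the first start and ended 6212 bases downstream, inside intron 1, and its width was at percentile 98.2 of all marked genes while its enrichment was at percentile 46.0. It held 5 of the 11 distinct starts, those of Slc1a2-202, Slc1a2-204 and 3 non-coding transcripts. A weaker stretch in intron 1 (chr2:102676076-102677837, enrichment 2.84) began 592 bases downstream of the start of the non-coding transcript Slc1a2-210, which lies 16825 bases from the first start. That stretch was present in both pools, with enrichments of 3.21 (pool J) and 4.09 (pool I). The starts of Slc1a2-201, Slc1a2-203 and Slc1a2-205, protein-coding transcripts that begin 47697 to 47779 bases downstream, were unmarked in every list, as were those of Slc1a2-207, Slc1a2-209 and Slc1a2-212 further on.

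Slc1a3 encodes GLAST, the second astrocytic glutamate transporter. Its domain spanned 4331 bases (chr15:8706725-8711055) in the replicated list, 3125 for pool J and 4351 for pool I, with a mean of 3738 ± 867 bases (SD, n = 2). The pool J domain lacked the separate downstream peak of 686 bases that the replicated list joined to the main one, and that peak was present in pool I with 691 bases. Enrichment was 17.7, 17.5 and 17.3, below the median of all marked genes in each list. All 6 starts of the first start group were inside the main peak, and the starts of the retained-intron transcripts Slc1a3-202 and Slc1a3-204, 59258 and 67517 bases downstream, were unmarked.

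Glul encodes glutamine synthetase, which turns glutamate into glutamine in astrocytes. It had the widest domain of the set, 8067 bases in the replicated list (chr1:153898905-153906971), 7501 for pool J and 7400 for pool I, with a mean of 7450.5 ± 71.4 bases (SD, n = 2). The replicated width included a peak of 238 bases with a −log10 q of 1.66 that was in neither pool list, and without it the domain was 7726 bases. The replicated width of 8067 bases was at percentile 99.2 of all marked genes. Enrichment was 14.6, 15.4 and 14.4, at percentile 23.9 in the replicated list, so the widest domain of the set had an enrichment well below the middle of all marked genes. The domain covered 71.9% of the gene and all 5 of its starts lay inside a peak. It also held both starts of Teddm2, a protein-coding gene on the opposite strand, and the start of the microRNA gene Mir8114 on the same strand, and the mark of these genes cannot be told apart from that of Glul.

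The gap junction genes had middle-sized domains of low enrichment. Gja1 encodes connexin 43, the main gap junction protein of astrocytes. Its domain was 3996 bases in the replicated list (chr10:56377000-56380995), 3543 for pool J and 4116 for pool I, a mean of 3829.5 ± 405 bases (SD, n = 2). Enrichment was 9.47 in the replicated list, 5.43 for pool J and 10.4 for pool I. In pool J the peak began 11 bases downstream of the first start, whereas it began 330 bases upstream in the replicated list and 350 upstream in pool I. The summit lay 1368 bases downstream of the first start in the replicated list, 1521 for pool J and 1361 for pool I, beyond the fifth of the 6 distinct starts, that of Gja1-203 at 1112 bases. The last start, that of the protein-coding transcript Gja1-206, lies at 1758 bases, so the summit stood between these starts in all 3 lists.

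Gjb6 encodes connexin 30, the second astrocytic connexin. Its domain was 3349 bases (chr14:57130330-57133678) in the replicated list, 2836 for pool J and 3416 for pool I, a mean of 3126 ± 410 bases (SD, n = 2). It was made of 3 separate peaks in the replicated list and in pool J, and of 2 in pool I. The width rested on their joining: the main peak of the replicated list alone was 1377 bases, narrower than that of S100b, and it was also the one left at a −log10 q of at least 10. Enrichment of the highest peak was 9.37, 7.84 and 10.8, and in each list this was the peak over the starts of the protein-coding transcripts Gjb6-201 and Gjb6-202. The other peaks, with enrichment 3.64 and 3.44 in the replicated list, lay 28 and 667 bases from the start of the non-coding Gjb6-203, and the start of Gjb6-204, 8390 bases from the first, was unmarked.

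Aqp4 encodes aquaporin-4, the water channel of the perivascular endfeet. Its mark was narrow and lay at internal starts. The domain was 1110 bases in the replicated list (chr18:15402573-15403682), 527 for pool J and 661 for pool I, with a pool mean of 594 ± 94.8 bases (SD, n = 2). The replicated width included a peak of 262 bases with a −log10 q of 1.28 that was in neither pool list, and without it the domain was 633 bases. Enrichment was 4.36, 4.95 and 4.09, and the −log10 q of the highest peak was 7.83, 9.21 and 6.73, so it passed a −log10 q of 10 in none of these lists. The domain began 76 bases downstream of the start of Aqp4-201, whose first exon it overlaps, and that start lies 7224 bases downstream of the 5′-most start. The 5′-most start, shared by 5 protein-coding transcripts, and the starts of Aqp4-208, Aqp4-209, Aqp4-205 and Aqp4-203 were unmarked in every list. Here 1 of 5 start groups carried the mark, in all 3 lists. The start of an antisense gene, AC133525.2, lies inside the domain, and reads of the mark carry no strand, so their marks cannot be told apart.

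Gfap encodes glial fibrillary acidic protein, the intermediate filament by which astrocytes are stained. None of its 3 starts had a peak within 1000 bases in any list. A peak lay within the gene at chr11:102892983-102893508, over exons 5 to 6 of the 9 exons of Gfap-201, and its edge was 3623 bases from the nearest start. It measured 526 bases with enrichment 4.00 in the replicated list, 313 bases with 3.13 in pool J and 954 bases with 3.51 in pool I. A second intronic peak, 222 bases wide with enrichment 2.42 and 1912 bases from the nearest start, was in the replicated list and in neither single-pool list. Both peaks lie outside the window of 1000 bases. In the replicated list the outermost peak inside the window among the marked genes was at Glul, 691 bases from a start.

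Aldh1l1 encodes a folate enzyme used as a pan-astrocyte marker. Its domain was the narrowest of the set in the replicated list, 776 bases (chr6:90550830-90551605), with 476 for pool J and 788 for pool I, a mean of 632 ± 221 bases (SD, n = 2). Enrichment was 4.46, 4.12 and 4.75, and the −log10 q was 8.54, 6.18 and 9.16. The mark lay at 1 of 4 start groups, that of Aldh1l1-203, Aldh1l1-201, Aldh1l1-206 and Aldh1l1-207, which begin within 59 bases of each other. The domain began 41 bases downstream of the first of these starts in the replicated list, 50 for pool J and 32 for pool I. The 5′-most annotated start, that of the non-coding Aldh1l1-202 at 64362 bases further upstream, was unmarked.

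S100b encodes a calcium-binding protein of astrocytes. Its single start was inside a peak in every list, with a domain of 1665 bases (chr10:76253690-76255354) in the replicated list, 1084 for pool J and 1782 for pool I, a mean of 1433 ± 494 bases (SD, n = 2). Enrichment was 5.38, 4.54 and 6.88. The upstream edge moved by few bases between lists, at 163, 169 and 171 bases before the start, and the downstream edge lay 1501, 914 and 1610 bases after it, so the difference in width came from the downstream side.

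Sox9, a transcription factor of the SoxE group that acts in glial specification and stays expressed in adult astrocytes, was the transcription factor of the set. Its domain was 5866 bases (chr11:112780984-112786849) in the replicated list, 4880 for pool J and 6131 for pool I, a mean of 5505.5 ± 885 bases (SD, n = 2). Enrichment was 14.99, 14.8 and 16.0. The domain covered 83.5% of the gene, the largest share among the 10 genes, and began 1240 bases upstream of the start. The start of BC006965, a non-coding gene on the opposite strand, lies inside it, so the marks of BC006965 and Sox9 cannot be told apart. In pool I a separate upstream peak of 843 bases in the domain lay 203 bases from the BC006965 start and 451 from that of Sox9.

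**Figure D4:**
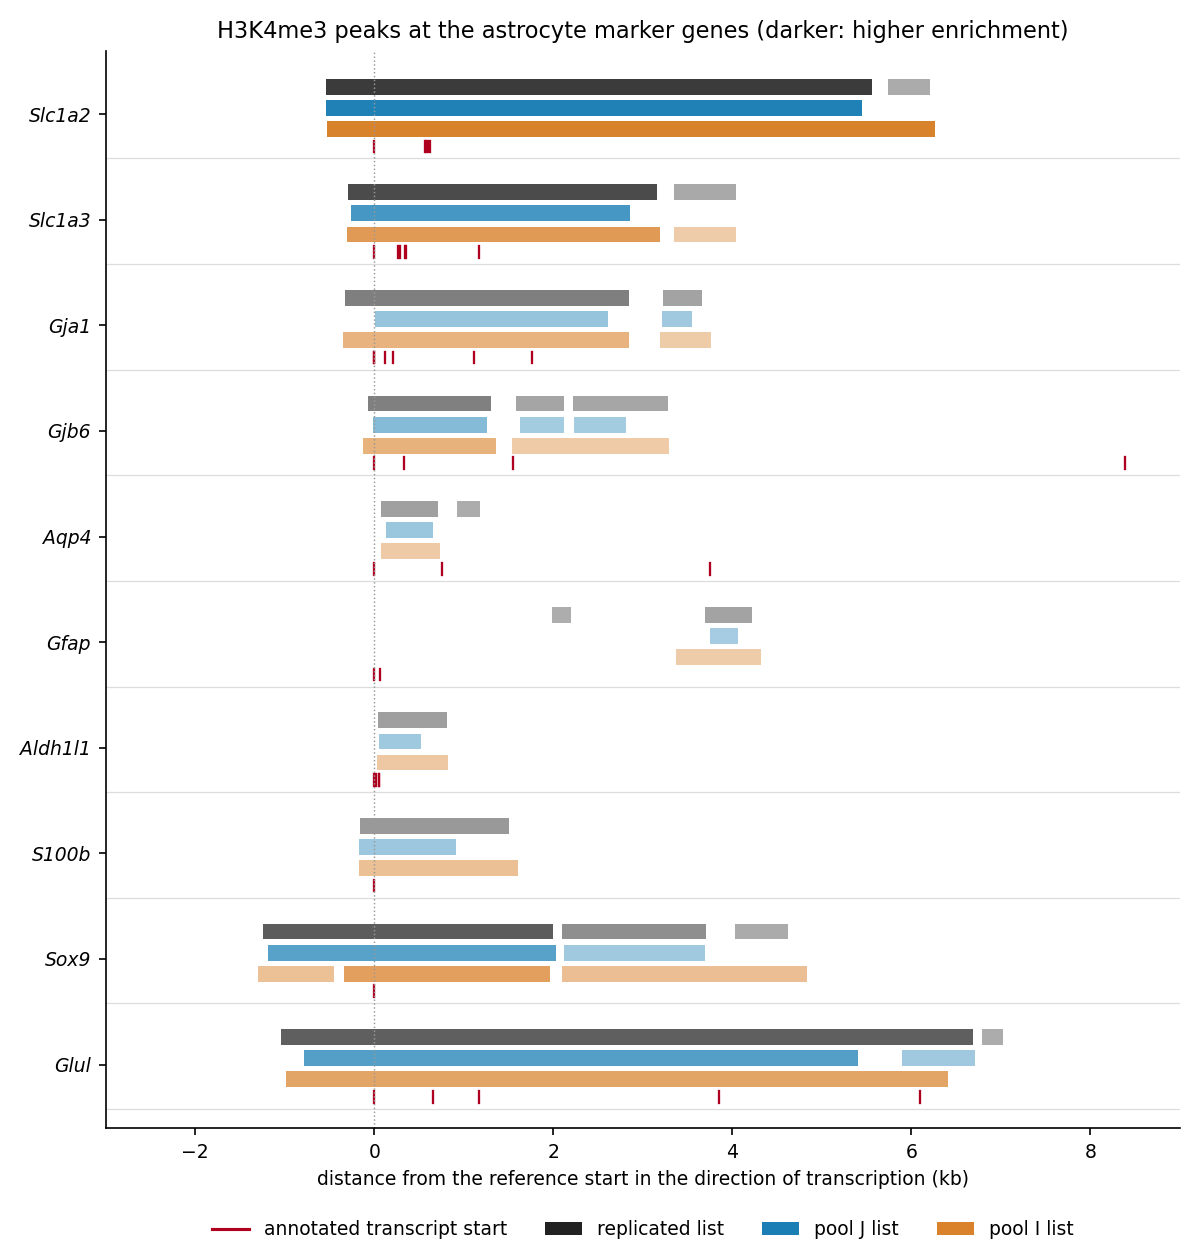
Peaks of the promoter region of each gene as bars in the replicated list (grey to black), pool J (blue) and pool I (orange), darker for higher enrichment, against the distance in kb from a reference start in the direction of transcription; red ticks are annotated starts. The reference is the 5′-most start, except the start of Aqp4-201, Aldh1l1-203 and Gfap-202 for these genes, and peaks beyond the axis are not drawn. The bars run mainly downstream of the start, and Gfap has no bar within 1 kb of it.

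Among the widest domains, 3 of the 9 marked genes, Glul, Slc1a2 and Sox9, lay in the widest 5% of all marked genes in the replicated list, where the threshold was 5166.4 bases. The same 3 genes passed in pool J, where 5% passed at a threshold of 4744.7 bases, and in pool I, where 5.01% passed at 5301.9 bases. The narrowest of the 3 was Sox9, with 5866 bases in the replicated list and 4880 in pool J. The next in order lay further from the threshold in percentile. These were Slc1a3 in the replicated list, with 4331 bases at percentile 90.8, and Gja1 in pool J, with 3543 bases at percentile 86.7. Sox9 was at percentiles 96.8 and 95.5 in these lists. The call of Sox9 rested on the joining of its 3 peaks: with overlapping or touching peaks alone joined its domain was 3235 bases, and 2 genes remained among the widest. The domains of Glul and Sox9 also hold starts of other genes, as given above.

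The order of the widths held between pools only in coarse terms. Glul was the widest and S100b the seventh in both pools, and their values overlapped those of no neighbour in the order. Slc1a2 and Sox9 overlapped, since Sox9 in pool I was wider than Slc1a2 in pool J. Slc1a3, with 3125 and 4351 bases, overlapped both Gja1 and Gjb6, and was wider than Gja1 in pool I and narrower in pool J. Gja1, with 3543 and 4116 bases, did not overlap Gjb6, with 2836 and 3416. Aqp4 and Aldh1l1 likewise changed places, with Aqp4 wider in pool J and Aldh1l1 wider in pool I. Of the 9 genes, 8 had a wider domain in pool I than in pool J, as did 76.6% of the 13961 genes marked in both pools. The median ratio of the width in pool I to that in pool J was 1.25 for the 9 genes, from 0.987 for Glul to 1.66 for Aldh1l1, and 1.07 over all genes. Widths at least 1.5-fold apart were seen at Aldh1l1 and S100b, 2 of the 9 genes, beside 4.79% of all genes. Both belong to the narrow group, and the pool I list was also the longer of the single-pool lists; the part of list length in these ratios was not tested.

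Alternative starts were counted over the whole set. The 10 genes had 53 distinct starts, of which 34 were marked in the replicated list, where 55.3% of all distinct starts of protein-coding genes were marked. Pool J had 34 marked beside 54.1% of all, and pool I had 34 beside 55%. Of the 53 starts, 28 lay inside a replicated peak, beside 50.9% of all distinct starts. Starts up to 1000 bases from the next were joined into groups, because they share a peak and are not separate observations. Of the marked genes, 6 had several groups, and 10 of their 24 groups were marked in the replicated list, beside 39.7% of such groups over all genes. The 5′-most group was unmarked at 2 of these 6 genes, Aqp4 and Aldh1l1, beside 8.11% of all marked genes with several groups. Both counts were the same in the single pools, where the shares over all genes were 38.8% and 8.18% in pool J, and 39.6% and 8.22% in pool I.

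The lists of related genes placed the 10 genes among their partners and families. Of 11 genes of glutamate and glutamine handling, which include Slc1a2, Slc1a3 and Glul, 10 were marked in each list, at medians of 4491 bases and an enrichment of 18.9 in the replicated list. The unmarked gene was Slc38a5, a glutamine transporter. Glul was the widest, and Glud1, glutamate dehydrogenase, had the highest enrichment at 29.8. Of 14 genes of endfeet and gap junctions, which include Gja1, Gjb6 and Aqp4, all 14 were marked in each list at medians of 2577.5 bases and 9.42. Dag1, dystroglycan, had the highest enrichment there, 31.6, and Aqp4 the lowest, 4.36. The list median of 9.42 lay below the 20.8 of all marked genes, so low enrichment was common in this list. The widest was Tjp1, the tight junction scaffold ZO-1, with 4802 bases.

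All 16 further astrocyte transcription factors were marked in each list, beside 65.2% (replicated), 63.9% (pool J) and 64.8% (pool I) of all genes. Their medians were 7795 bases and 20.0 in the replicated list, and 12 of the 16 lay among the widest 5% there. Nfib was the widest with 14210 bases, and Stat3 had the highest enrichment, 32.1, with a domain of 2138 bases. Sox9, at 5866 bases and 14.99, lay below both medians of this list. Wide domains were not particular to these factors. The 13 genes of cortical neurons described below had a median of 7858 bases, and 9 of them lay among the widest 5%. Which cells carried the mark of the factors was not tested. Of the SoxE factors, Sox8 was wider than Sox9 with 7743 bases and enrichment 16.5, and Sox10, the oligodendrocyte factor, had 4030 bases and 4.66. Of 30 other genes used for astrocytes, 28 were marked in the replicated list, 27 for pool J and 28 for pool I, at medians of 3262.5 bases and 10.2, near the values of the 10 genes. Agt and Itih3 were unmarked in every list. The widest of them was F3, tissue factor, with 6506 bases, and the highest enrichment was that of Ttyh1, a membrane protein gene, with 30.3.

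Gene families gave a further setting, and their counts stand beside 65.2% (replicated), 63.9% (pool J) and 64.8% (pool I) of all genes marked. Of the 7 Slc1 transporters 6 were marked in each list, Slc1a7 being unmarked. Slc1a1, the neuronal transporter EAAC1, had 2892 bases and enrichment 25.9, narrower and higher than Slc1a2 with 6748 and 20.0. Among 20 connexins 13 were marked in the replicated list, near the share over all genes, and 12 in each pool. Gja1 and Gjb6 had the widest domains of that family, though the width of Gjb6 rested on joined peaks, the main one being 1377 bases in the replicated list. Gjb2, which encodes connexin 26, had 1486 bases with enrichment 15.3. Of 12 aquaporins 3 were marked in each list, Aqp3, Aqp4 and Aqp11, and Aqp11 had the widest domain, 3327 bases with enrichment 23.7. Of 10 intermediate filament genes outside the keratins 8 were marked in each list, and Des, of muscle, was unmarked together with Gfap. Vim, also made by astrocytes, had 3170, 3173 and 3164 bases in the replicated, pool J and pool I lists. Among 18 genes with an S100 symbol 8 were marked in each list, with S100a1 and S100a13 sharing 1 domain and S100pbp being the gene of a binding protein. S100b had an enrichment of 5.38 in the replicated list beside a family median of 10.6. Of 7 Aldh1 genes 5 were marked in each list, with a family median width of 952 bases, and Aldh1a1 and Aldh1a7 were unmarked.

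Lists of other cell types of the cortex were counted by the same rule, which marked 65.2% (replicated), 63.9% (pool J) and 64.8% (pool I) of all genes. All 13 genes of cortical neurons were marked in each list, at medians of 7858 bases and an enrichment of 19.3 in the replicated list. Of 10 endothelial genes 9 were marked in the replicated list and in pool J, and 10 in pool I, at medians of 3786 bases and 5.65. Of 10 myelin genes 8 were marked in the replicated list, 7 for pool J and 9 for pool I, at medians of 2230.5 bases and 5.30. Of 10 microglial genes 6 were marked in the replicated list, 1 for pool J and 4 for pool I, at medians of 256 bases and 3.13. In the replicated list the medians of the astrocyte genes stood between those of the neuronal and the microglial genes. The part of cell numbers in this order was not tested.

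**Figure D5:**
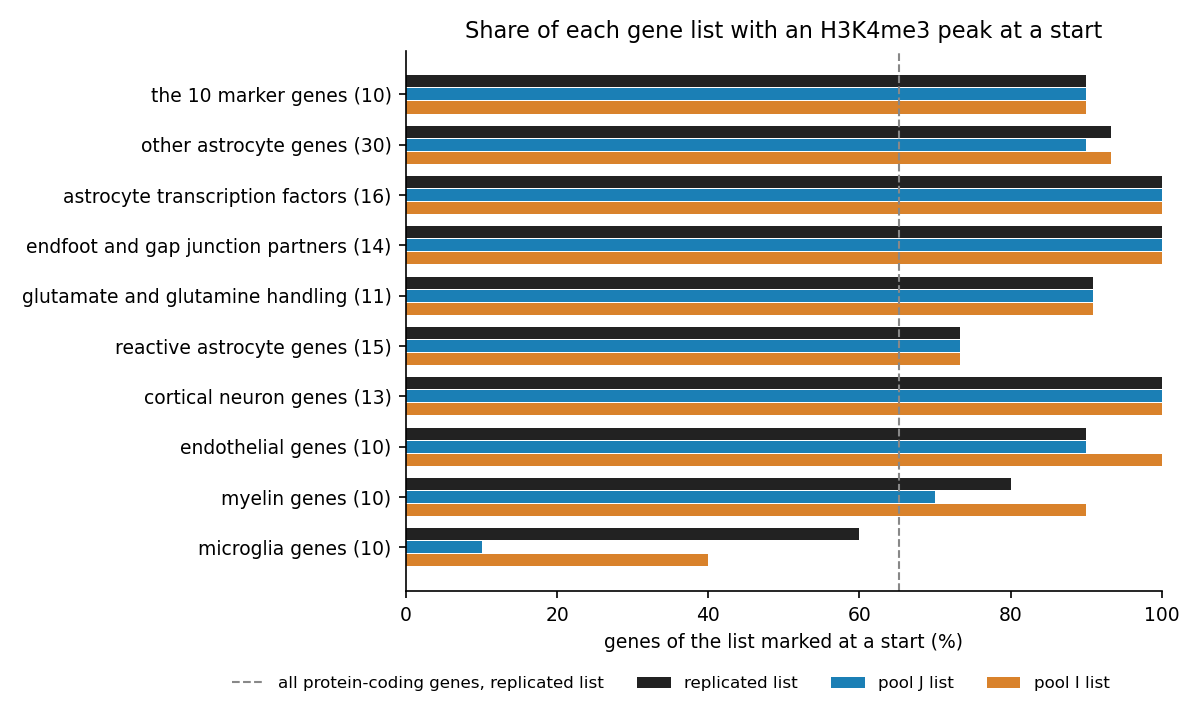
Share of the genes of each list (%) with a peak within 1000 bases of a start in the replicated list (black), pool J (blue) and pool I (orange), with the number of genes of each list in brackets; the dashed line is the 65.2% of all protein-coding genes in the replicated list. The 10 marker genes stand at 9 of 10 in each peak list, and among the gene lists drawn the microglial one is lowest.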

How the data were processed

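H3K4me3 chromatin immunoprecipitation was sequenced in 4 libraries, grouped by the pool that the labels name (pool J, pool I). The authors deposited 4 peak lists on mm10, per the labels and the text files that came with the libraries: 1 for each pool, 1 on the reads of both pools and 1 replicated list, whose enrichment values equalled those of the list on pooled reads at all 9 marked genes. Aligner, caller and read depth were not given in the sources used here. The deposited enrichment is a ratio, read as a fold over control since the labels name a possible control experiment. The deposited −log10 q of a peak is the authors' value and was used as a filter in alternatives. The deposited display score was not used. Reads of a hybrid were placed on mm10, and allelic differences in mapping were not analysed here.

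Peaks were assigned to starts of GENCODE M21 with Python 3.11.15 and numpy 2.4.6, with an overlap of at least 1 base with 1000 bases either side of a start. The start positions were checked against the genome sequence at 60 of 60 transcripts of the genes. Assignment and joining were tested on simulated data. Figures used matplotlib 3.10.9. Percentiles are among all marked protein-coding genes of a list. All 10 genes are named. Of each further list the widest, the most enriched, the unmarked where 5 or fewer and relatives of the 10 genes are named. The members and lists were chosen with earlier results of these data known. Alternatives changed the list, the q filter, the window, the starts, the overlap and the joining of peaks.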

Additional observations from a re-analysis of the deposited data

How the results depend on the processing

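No paired analysis was possible because each pool has 1 peak list and no test was made. The count of 9 marked genes was 10 with a window of 2500 bases, which added Gfap, and 7 with a −log10 q of at least 10 or with the 5′-most start alone, both of which dropped Aqp4 and Aldh1l1; in the other settings tried it was 9. The median width of 3996 bases ranged from 3125 to 4116 when 1 pool was left out, and was 3174 when overlapping or touching peaks alone were joined. The median enrichment of 9.47 ranged from 7.84 to 10.8 when 1 pool was left out, and was 14.6 over the 7 genes left at a −log10 q of at least 10. Of starts of protein-coding transcripts alone, 21 of 30 were marked, a smaller number than 34 of 53 because fewer starts were counted. With gaps of up to 3000 bases joined, 2 genes stayed among the widest, Glul and Slc1a2. For single genes, 25 of the alternative widths moved by more than the SD between pools and 45 did not, while 7 enrichments moved and 63 did not. Changing the window or joining gaps of up to 3000 bases altered none of these widths, and the list on pooled reads altered only that of Glul. Widths unmoved there say little of stability. With the pool J list alone, the width of every marked gene moved. All 7 enrichment moves came from leaving out 1 pool, which sets values of different lists side by side. Whether the lists share a scale of enrichment was not tested. The joining of peaks and the q filter cannot alter the highest start peak of a gene that stays marked. Enrichments unmoved under these settings therefore say nothing of stability. Leaving out a single library was not run, since both libraries of a pool enter 1 list. Unknown read depth limits what the narrow peaks of Aqp4 and Aldh1l1 and the lack of one at Gfap can show.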

Other observations

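Genes known to be induced in reactive astrocytes had mostly narrow domains. Of 15 such genes 11 were marked in each list, at medians of 1252 bases and an enrichment of 6.10 in the replicated list, beside 65.2% of all genes marked there, and none lay among the widest 5% of all marked genes. Lcn2, C3, Timp1 and Steap4 were unmarked in every list. Vim had the widest domain, 3170 bases, and Synm, another intermediate filament gene of astrocytes, the highest enrichment, 17.3.

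A peak away from any annotated start lay beyond the 3′ end of Slc1a3 (chr15:8629460-8630108), 4016 bases past the end of the gene and 13139 bases from the nearest annotated start. It measured 649 bases with enrichment 10.5 in the replicated list, 568 with 7.07 in pool J and 715 with 13.3 in pool I. Among the 7982 replicated peaks that lay more than 1000 bases from every annotated start, whose medians were 496 bases and an enrichment of 3.87, its enrichment was at percentile 91.8. Its percentile was 75.9 among the 5220 such peaks of pool J and 94.4 among the 7271 of pool I. Within the gene, an intronic Slc1a3 peak (chr15:8663552-8664050) had enrichment 4.53, 4.52 and 4.47 in the replicated list, pool J and pool I. The peak over the Gfap exons was at percentile 52.7 of the same set in the replicated list, and at percentiles 8.89 and 23.5 of the corresponding peaks of pools J and I.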
